A study of Danio rerio with 6 samples.

Results

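Chromosome 19 of the zebrafish carries thrb, the gene for thyroid hormone receptor beta, and 10 other genes of that chromosome are described here in retinas of fish homozygous for an allele of it: mhc1uba, serinc2, gmnn, fbxl6, cap2, fam65b, c1galt1a, otud6b, eepd1 and myclb. They were chosen by name from the genes that differed between thrb-/- and wild-type retina, out of 9211 genes in the authors' table, so their differences are given as a description and are not tested. The tested fish were homozygous for the stl628 allele of thrb (thrb stl628/stl628, labelled thrb-/-) and their wild-type counterparts came from the same clutches. All fish were 6 months old and of the AB* background. Each genotype had 3 samples, and each sample pooled 2 retinas of a male with 2 of a female, so no value belongs to a single fish. RNA was taken from whole retina and selected for poly-A tails. The labels do not say what lesion the stl628 allele carries.

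Thyroid hormone receptor beta is a nuclear receptor that binds DNA and, with its hormone, changes the transcription of target genes. In the retina it is known for directing cones to the long-wavelength (red) type. Genes that share a chromosome are inherited together to a degree that falls with distance, so fish selected as homozygous for an allele of thrb also tend to share the sequence around it. In this design a difference that comes with loss of the receptor and a difference that comes with linked sequence cannot be told apart. The 10 genes themselves belong to unrelated families, from antigen presentation to the actin cytoskeleton.

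The table gives 1 mean normalized count per genotype and gene, without values per sample, so no SD between samples can be given. The error used throughout is the deposited standard error (SE) of the log2 fold change, as given by the authors' model for 3 samples of each genotype. How that model estimated it for each gene cannot be seen here. The mutated gene was checked first. Per the authors' deposited table thrb had a mean normalized count of 413 in thrb-/- retina, against 3301 in wild-type retina (log2 fold change -3.01, SE 0.13). Rod photoreceptor transcripts were abundant, with rho, the rod opsin, at 713968 in thrb-/- retina and 592476 in wild-type retina per the authors' deposited table. Pigment epithelium and melanin genes differed with genotype: 5 of 8 fixed markers were listed, their counts summed to 1782 in thrb-/- retina and 3559 in wild-type retina, and 4 of them fell by the test described below. Of 9 listed cone genes the 2 red opsins fell and 2 further opsins rose past that test. Of 5 listed amacrine and horizontal cell genes 2 fell, while gad2 and slc32a1 had positive log2 fold changes, both 0.18, and did not pass. Of 6 listed ganglion cell genes 2 rose, but 4 had negative log2 fold changes, and the median of the list was -0.01. The part of these cell types in the differences of the 10 genes was not tested. None of the markers listed for leukocytes (6 of 9), endothelium (5 of 5), Müller glia (4 of 4), rods (6 of 8), bipolar cells (5 of 5), lens (1 of 3) or blood (2 of 3) passed that test. Over all listed genes 2.08% passed, so the lack of calls in lists this short is close to the background. It is no result about these cell types. In whole-retina RNA, fewer cells of a type and less RNA per cell cannot be told apart.

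Of the 10 genes, 5 were higher and 5 lower in thrb-/- retina, where 0.879% of all listed genes rose and 1.21% fell past the threshold given next. The log2 fold changes ran from 0.65 to 2.31 among the higher ones and from -2.94 to -0.43 among the lower ones per the authors' deposited table. All 10 were past the threshold of a Wald test against no change (the deposited log2 fold change over its SE, two-sided, Benjamini-Hochberg adjusted p under 0.05 over all listed genes), a threshold that 2.08% of all listed genes passed. The 10 were chosen by name for their change in this contrast, so nothing is read from their passing. On the same chromosome 14 further genes passed this test and are not among the 10. The test takes the normal distribution as reference. With a t distribution of 4 degrees of freedom 1 of all listed genes passed, and it was neither thrb nor any of the 10. The authors' own test asks for a change beyond 2-fold. It called mhc1uba and serinc2 among the 10, and 0.076% of all listed genes. By point estimate 3 of the 10 lay beyond 2-fold, the third being gmnn. In the table the larger genotype mean of a gene is never below 50.04. Among the 10, mhc1uba (38.6 in thrb-/- retina) and gmnn (35.8 in wild-type retina) had 1 mean below that, so they are listed only through the genotype where they were higher, and their ranks among the listed genes carry that limit.

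**Figure D1:**
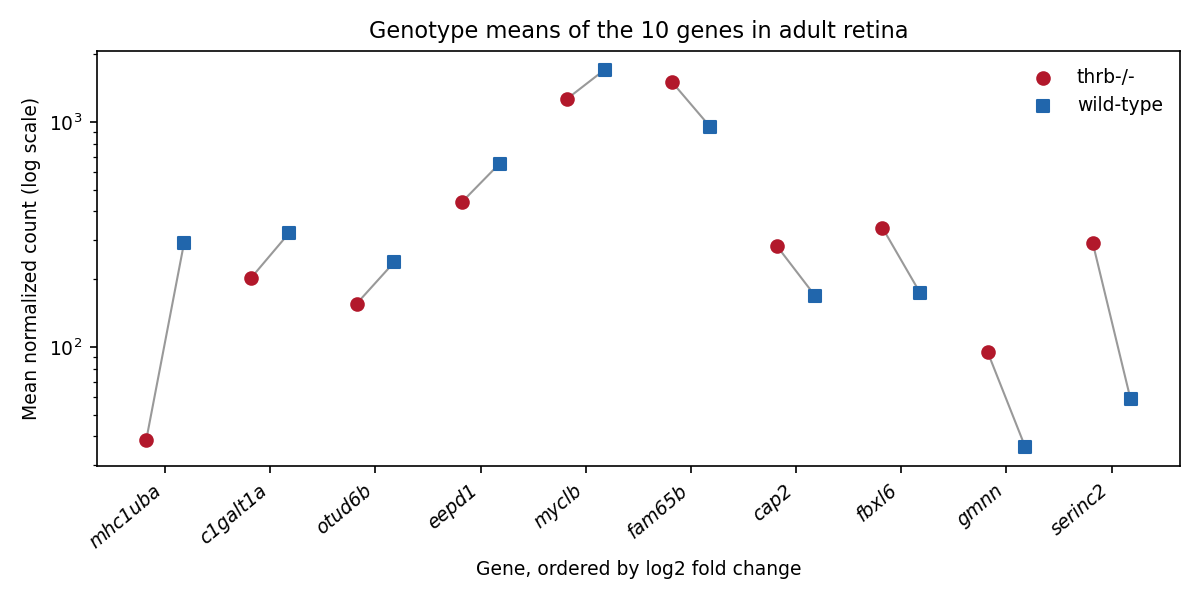
Mean normalized count (log scale) of each of the 10 genes in thrb-/- retina (red circles, left) and wild-type retina (blue squares, right), ordered by log2 fold change; each point is the authors' mean of 3 samples and carries no error bar because values per sample are not in the table. The lower genes stand at the left, led by mhc1uba at 38.6 in thrb-/- against 290 in wild-type retina, and the higher ones at the right, ending with serinc2 at 291 in thrb-/- against 58.6 in wild-type retina.

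The lower group was led by the immune gene mhc1uba, a class I gene of the major histocompatibility complex, of the U lineage, whose product displays peptides on the cell surface to T cells. Its mean normalized count was 38.6 in thrb-/- retina, against 290 in wild-type retina. The mutant mean was 13.3% of the wild-type mean. By the model's estimate mhc1uba was 7.68-fold lower (log2 fold change -2.94 with SE 0.23 per the authors' deposited table). Fold values here and below are taken from the log2 fold change, so they can differ slightly from the ratio of the printed means. Only 6 of the 9211 listed genes had a lower log2 fold change, thrb among them. Class I genes resemble each other in sequence and differ in number between zebrafish haplotypes, so the separate count of mhc1uba is uncertain. The listed leukocyte markers summed to 1646 in thrb-/- retina and 1434 in wild-type retina, and all 6 had positive log2 fold changes, from 0.02 to 0.34 per the authors' deposited table. The fixed markers ptprc, lcp1 and mhc2dab have no row among the listed genes.

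Other antigen presentation genes were compared with it. Of 48 class I and antigen-processing genes fixed by name, 13 besides mhc1uba were listed, and none passed the Wald test (1 at an unadjusted p under 0.05). With 2.08% of all listed genes passing, this is close to the background and is no result about these 13 genes. Their median log2 fold change was 0.08, with a range from -0.22 to 0.14 per the authors' deposited table. The calcium-binding chaperone canx, which holds class I chains during folding, stood at 0.08 (SE 0.09), and psme4b, a proteasome activator, at -0.22 (SE 0.10), both per the authors' deposited table. The class I genes mhc1zda and mhc1laa, of the Z and L lineages, had values of -0.06 (SE 0.14) and -0.06 (SE 0.21) per the authors' deposited table. The light chain gene b2m, whose product pairs with class I chains, was at 0.12 (SE 0.19) per the authors' deposited table. The related gene b2ml had a higher mean count (2846, against 149 for b2m) and was at 0.14 (SE 0.09) per the authors' deposited table. All of mhc1zda, mhc1laa, b2m and b2ml were picked with their values known. In RefSeq gene order the nearest annotated genes to mhc1uba include mhc1uka, tapbp.1, tapbp.2 and psmb8a, which have no row among the listed genes and were not analysed here.

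The enzymes and regulators among the lower genes differed by less. The core 1 galactosyltransferase gene c1galt1a, whose family adds galactose to O-linked glycans, averaged 203 in thrb-/- retina and 321 in wild-type retina. That is 1.58-fold lower (log2 fold change -0.66 with SE 0.15 per the authors' deposited table). The name c1galt1a is also an older synonym of a gene on chromosome 23, so its place on chromosome 19 is less certain than that of the other 9. For otud6b, an ovarian-tumour-domain deubiquitinase, the means were 155 in thrb-/- retina and 239 in wild-type retina. It was 1.54-fold lower (log2 fold change -0.63 with SE 0.16 per the authors' deposited table) and had the smallest ratio of change to error of the 10, at 3.80.

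The remaining lower genes were expressed at higher counts. A gene of the endonuclease, exonuclease and phosphatase fold, eepd1, known in human cells for a role at stalled replication forks, averaged 439 in thrb-/- retina and 652 in wild-type retina. It was 1.49-fold lower (log2 fold change -0.57 with SE 0.14 per the authors' deposited table). The Myc family transcription factor gene myclb, an L-Myc paralog, stood at 1264 in thrb-/- retina and 1706 in wild-type retina. It was 1.35-fold lower (log2 fold change -0.43 with SE 0.11 per the authors' deposited table), the smallest change of the 10.

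Among the higher genes serinc2 stood first. It encodes a serine incorporator, a family of membrane proteins with several transmembrane segments. Its mean normalized count was 291 in thrb-/- retina, against 58.6 in wild-type retina. The difference was 4.96-fold (log2 fold change 2.31 with SE 0.19 per the authors' deposited table), and no other listed gene had a higher log2 fold change.

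Geminin, encoded by gmnn, binds the licensing factor Cdt1 and so prevents DNA from being replicated again within a cell cycle. The gmnn mean was 95.1 in thrb-/- retina and 35.8 in wild-type retina, 2.62-fold higher (log2 fold change 1.39 with SE 0.30 per the authors' deposited table). Its SE was the largest of the 10, and it was the gene with the lowest mean count (65.5) and the only one of the 10 with a mean below 100. By log2 fold change it ranked 3 of all listed genes, counted from the highest. Listed cell cycle markers (3 of 7: ccne2, pcna and mki67) summed to 1256 in thrb-/- retina and 1489 in wild-type retina. None of these 3 passed the Wald test, which 2.08% of all listed genes passed, so this is no result about them. The gene pcna, for the DNA polymerase clamp, stood at -0.06 (SE 0.11) on the log2 scale and ccne2, a cyclin of the entry into S phase, at -0.43 (SE 0.18), per the authors' deposited table. The proliferation marker gene mki67 was at 0.28 (SE 0.27), with means of 68.2 in thrb-/- retina and 56.1 in wild-type retina per the authors' deposited table.

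The other genes with higher counts serve protein turnover and the cytoskeleton. The F-box gene fbxl6, whose family supplies substrate receptors to SCF ubiquitin ligases, averaged 339 in thrb-/- retina and 173 in wild-type retina. It was 1.96-fold higher (log2 fold change 0.97 with SE 0.15 per the authors' deposited table) and ranked 5 of all listed genes from the highest. The cyclase-associated protein gene cap2, which acts in actin filament turnover, averaged 279.6 in thrb-/- retina and 168.7 in wild-type retina, 1.66-fold higher (log2 fold change 0.73 with SE 0.16 per the authors' deposited table). A regulator of the small GTPase RhoA is encoded by fam65b, listed in RefSeq as ripor2 and known in hair cells for a role in the sensory hair bundle. Its means were 1502 in thrb-/- retina and 953 in wild-type retina, 1.57-fold higher, with the smallest SE of the 10 (log2 fold change 0.65 with SE 0.10 per the authors' deposited table).

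The relatives of the 10 genes were tested next. Across 10 families fixed by name, 52 listed genes other than the 10 were tested. None passed the Wald test, and 6 had an unadjusted p under 0.05. The count was also 0 by the authors' own test. The shares over all listed genes were 2.08% and 0.076%, so a count at or near 0 among 52 genes is close to the background and is no result about these relatives. Their log2 fold changes ran from -0.39 to 0.29 per the authors' deposited table. The median absolute log2 fold change was 0.09 in these relatives, the same to 2 decimals as over all listed genes.

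Per the authors' deposited table serinc1 had a log2 fold change of -0.20 (SE 0.11) and serinc5 one of 0.04 (SE 0.17), beside 2.31 for serinc2. The paralog cap1, which also lies on chromosome 19, stood at -0.10 (SE 0.12) beside 0.73 for cap2 per the authors' deposited table. For fam65a the value was 0.05 (SE 0.14), beside 0.65 for fam65b per the authors' deposited table. The paralog c1galt1b was at -0.08 (SE 0.22) and the chaperone gene c1galt1c1 at -0.01 (SE 0.12), beside -0.66 for c1galt1a per the authors' deposited table. These are single values of 1 contrast, and the differences between paralogs were not tested because that contrast chose the 10 genes.

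Of 10 other F-box and leucine-rich repeat genes, none passed and the range was -0.28 to 0.23 per the authors' deposited table, with fbxl3a at 0.02 (SE 0.09) and fbxl2, also on chromosome 19, at -0.28 (SE 0.11). None of 8 other OTU-family deubiquitinase genes passed, and otud5a and otud7b stood at 0.01 (SE 0.11) and 0.02 (SE 0.13) per the authors' deposited table. The replication genes mcm7 and mcmbp had values of 0.03 (SE 0.19) and 0.29 (SE 0.28) beside gmnn per the authors' deposited table, and 14 of the 17 fixed licensing genes had no row. Of the 3 repair nucleases listed beside eepd1, apex1 was at 0.06 (SE 0.13) and fen1 at -0.08 (SE 0.17) per the authors' deposited table.

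Myc genes are transcription factors that bind DNA together with Max. All 5 listed Myc genes had a negative log2 fold change, though only myclb, which was chosen for its change, passed the Wald test. Of the 10 other listed genes of the fixed Myc and Max list 7 were negative. In that list mxi1 went the other way, at 0.26 (SE 0.12) per the authors' deposited table, and did not pass. A shared change of the Myc genes was not tested. Per the authors' deposited table mycla was at -0.39 (SE 0.16), myca at -0.37 (SE 0.12), mycb at -0.27 (SE 0.14) and mycn at -0.17 (SE 0.20). Their dimerisation partner max was at -0.09 (SE 0.09) and mgaa, for a Max-binding repressor, at 0.05 (SE 0.10) per the authors' deposited table. The Wald test adjusted p was 0.097 for myca and 0.31 for mycla; mycla, myca, mycb and mycn were picked with their values known.

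**Figure D2:**
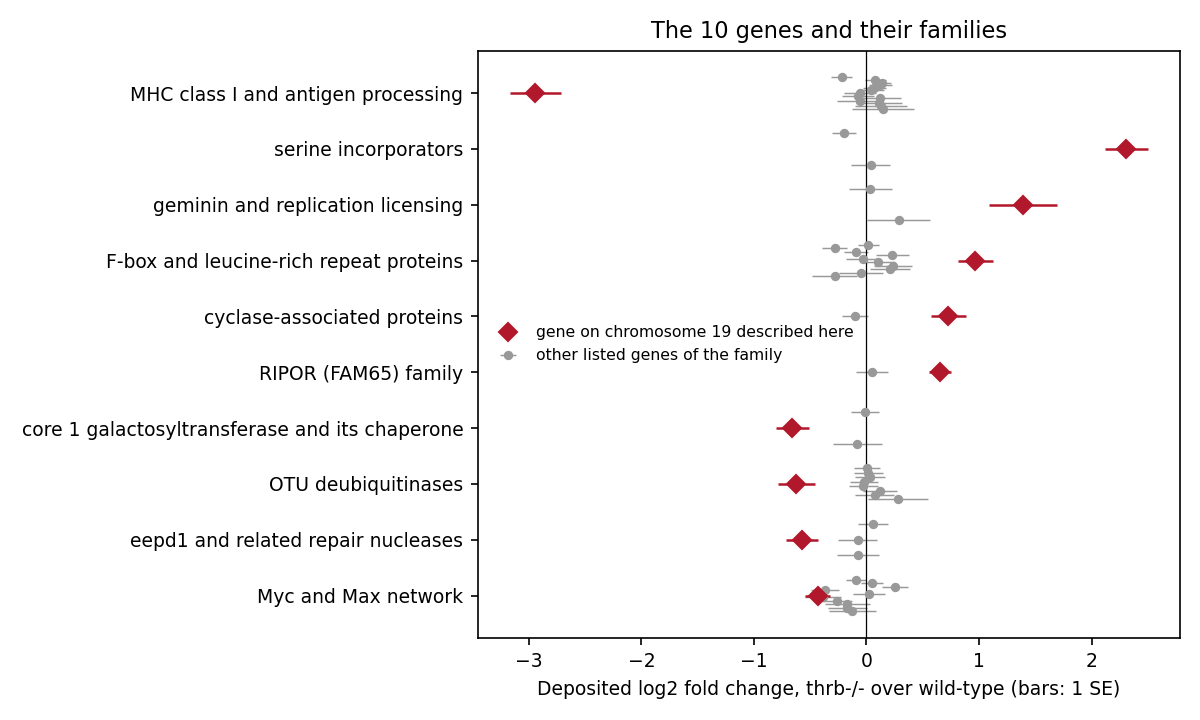
Deposited log2 fold change, thrb-/- over wild-type, of the 10 genes (red diamonds) and of the other listed genes of each family (grey circles), with bars of 1 SE; families are ordered as fixed by name. The grey values lie between -0.39 and 0.29, and the 10 genes, which were chosen for their change, at or beyond 0.43 in absolute value.

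Along the chromosome the 10 genes did not form a block around thrb, but they were chosen by name and their spread depends on that choice. Chromosome 19 holds 1313 annotated genes in RefSeq (assembly GRCz12tu), of which 421 were listed. That assembly is not the build the authors used (danRer10), so it serves here for gene order alone. The nearest of the 10 to thrb was serinc2, 42 annotated genes away, and the farthest cap2, 673 away. Nearer to thrb lay rab42a, 27 away, which passed the Wald test but is not among the 10. On the side of serinc2 lay eepd1 at 120 annotated genes from thrb and mhc1uba at 295. On the other side lay fbxl6 at 130, c1galt1a at 249, myclb at 360, gmnn at 384, fam65b at 385, otud6b at 435 and cap2 at 673. Higher and lower genes were interspersed along this order, and gmnn and fam65b, both higher, were the only adjoining pair among the 10.

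Apart from gmnn and fam65b, which adjoin each other, none of the nearest listed genes reported here on either side of the 10 and of thrb passed the Wald test. There were 19 such neighbours that are not themselves among the 10, with log2 fold changes from -0.15 to 0.31 per the authors' deposited table. Of these 0 passed, and 1, pleca, had an unadjusted p under 0.05 in the Wald test. The share past the test was 2.08% over all listed genes and 5.71% on chromosome 19 without thrb. A count of 0 among 19 genes is close to that background and is no result about these neighbours. Of 17 pairs of a gene and its neighbour, 8 had the same sign. Next to thrb, nr1d2b, a clock repressor of the nuclear receptor family, was at -0.03 (SE 0.65) and top2b, a DNA topoisomerase, at -0.07 (SE 0.09) per the authors' deposited table. The 95% interval of nr1d2b was wide, from -1.30 to 1.24 on the log2 scale.

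The 10 genes were chosen for their change and the neighbours were not, so a smaller value beside them is fixed by that choice. Beside serinc2, oprd1a was at 0.31 (SE 0.26) and pdik1l at 0.30 (SE 0.21) per the authors' deposited table. For mhc1uba the neighbours were daxx at 0.11 (SE 0.14) and brd2a at -0.04 (SE 0.10) per the authors' deposited table. The next listed gene past brd2a, hsd17b8, was lower, at -0.96 (SE 0.30) per the authors' deposited table, and did not pass the Wald test. It was picked with its value known. For eepd1 the neighbours were ssr2 at 0.05 (SE 0.13) and sept7a at 0.05 (SE 0.15) per the authors' deposited table. Next to fbxl6 stood slc52a2 at -0.11 (SE 0.22) and pleca, for a cytoskeletal linker, at 0.19 (SE 0.09) per the authors' deposited table. Beside otud6b, runx1t1 was at 0.27 (SE 0.15) per the authors' deposited table.

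The rest of these neighbours gave no value past the test either. On the outer sides of the gmnn and fam65b pair lay zgc:111986 at 0.09 (SE 0.10) and si:dkeyp-120h9.1 at -0.15 (SE 0.24) per the authors' deposited table. Beside myclb were trit1 at 0.11 (SE 0.15) and mfsd2ab at -0.05 (SE 0.14), and beside c1galt1a were si:dkey-119m17.2 at 0.09 (SE 0.22) and sdhaf3 at 0.26 (SE 0.20), per the authors' deposited table. At cap2 the values were 0.06 (SE 0.22) for krit1 and 0.11 (SE 0.11) for vps28 per the authors' deposited table. No strand-marking step is named in the library protocol, and if genes overlap on opposite strands in the authors' annotation, their reads cannot be told apart.

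**Figure D3:**
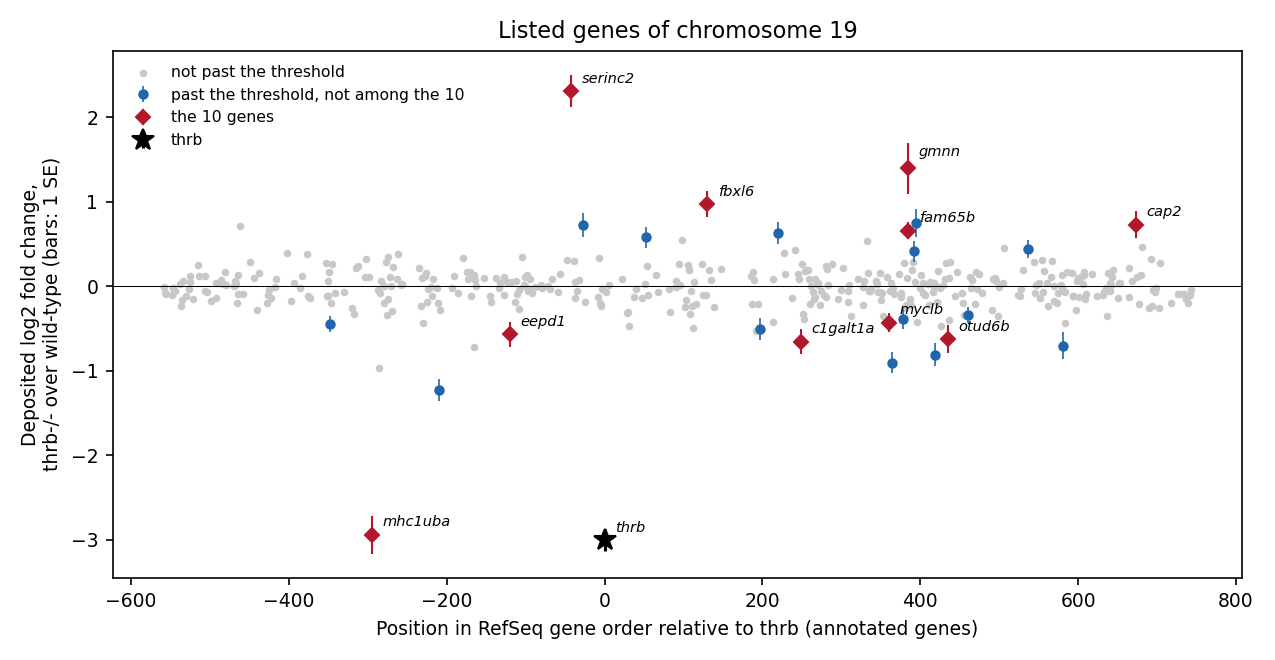
Deposited log2 fold change, thrb-/- over wild-type, of the 421 listed genes of chromosome 19 against their position in RefSeq gene order, counted in annotated genes from thrb (star); bars show 1 SE for the 10 genes (red diamonds) and the other genes past the Wald threshold (blue circles), and grey points did not pass. The genes past the threshold lie on both sides of thrb and above and below 0, from 348 annotated genes on one side to 673 on the other.

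Beyond the 10 genes, 14 more genes of chromosome 19 passed the Wald test. With thrb left out, 24 of 420 listed genes of the chromosome passed, 11 higher and 13 lower, which is 5.71%. On the other chromosomes 165 of 8709 listed genes passed, or 1.89%. Without the 10 genes, which were taken from the changed ones, 14 of 410 passed, or 3.41%. As all 10 had passed, leaving them out could only lower this share, and no changed genes were left out elsewhere. Over the 24 other chromosomes the share ran from 0.679% on chromosome 7 to 3.06% on chromosome 2. The median absolute log2 fold change was 0.12 on chromosome 19 and 0.09 on the other chromosomes, where single chromosomes ran from 0.08 to 0.11. These shares describe 1 contrast and carry no test, since genes of a chromosome are not replicates.

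**Figure D4:**
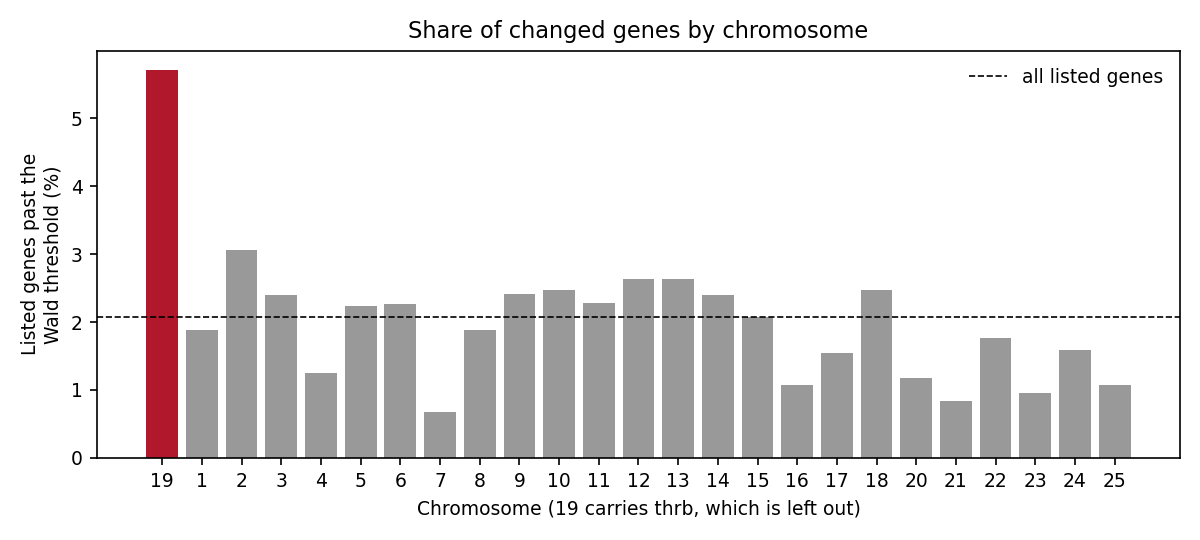
Share of listed genes past the Wald threshold on each chromosome, with chromosome 19 in red and thrb left out; the dashed line marks all listed genes (2.08%). The bar of chromosome 19 stands at 5.71% and the next highest, chromosome 2, at 3.06%.

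Of these 14 genes, 8 fell and 6 rose. The largest fall was that of si:ch211-81a5.8, an uncharacterised gene, with means of 1926 in thrb-/- retina and 4513 in wild-type retina (log2 fold change -1.23 with SE 0.13 per the authors' deposited table; Wald test adjusted p = 4.05e-18). Next came nhsl3, which the table lists under a clone name, at 263 in thrb-/- retina and 493 in wild-type retina (log2 fold change -0.90 with SE 0.13 per the authors' deposited table; Wald test adjusted p = 7.27e-10). A subunit gene of ribonucleotide reductase, rrm2b, averaged 243 in thrb-/- retina and 427 in wild-type retina (log2 fold change -0.81 with SE 0.14 per the authors' deposited table; Wald test adjusted p = 4.46e-07). These falls were larger than those of 4 of the 5 lower genes described above.

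The other falls were smaller. Per the authors' deposited table zgc:153441 was at -0.71 (SE 0.16), thap7, of a zinc finger family, at -0.51 (SE 0.14) and tpi1a, for the glycolytic enzyme triosephosphate isomerase, at -0.45 (SE 0.10). The calcium-binding protein gene necab1 was at -0.39 (SE 0.12) and ndrg1a at -0.34 (SE 0.10) per the authors' deposited table. The Wald test adjusted p of these 5 ran from 0.00029 for tpi1a to 0.048 for necab1. The mean of ndrg1a was 60196 in thrb-/- retina and 76181 in wild-type retina, the highest counts among the changed genes of the chromosome.

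The 6 rises were all below 2-fold by point estimate. Per the authors' deposited table znf704, a zinc finger gene, was at 0.74 (SE 0.17), and rab42a, for a Rab GTPase, at 0.73 (SE 0.14). The uncharacterised si:dkeyp-92c9.2 was at 0.63 (SE 0.13) and ptpn23b, of the tyrosine phosphatase family, at 0.58 (SE 0.12) per the authors' deposited table. Smaller rises per the authors' deposited table were those of fam133b (0.44, SE 0.11) and tpd52 (0.41, SE 0.12). The adjusted p from the Wald test ran from 5.52e-05 for rab42a to 0.044 for tpd52. The deposited adjusted p-values imply that the authors tested 13700 genes. The p-values of the unlisted genes are unknown, and they were counted as not changed, the strictest case. With that number tpd52 (adjusted p = 0.065) and necab1 (adjusted p = 0.071) no longer passed the Wald test.

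The share of changed genes near thrb was set beside the share farther away. Within 50 annotated genes on either side, 2 of 24 listed genes passed the Wald test, serinc2 and rab42a, or 8.33%. Farther away on the chromosome 22 of 396 passed, or 5.56%. With a window of 100 annotated genes the shares were 3 of 51 (5.88%) and 21 of 369 (5.69%). These counts near thrb rest on few listed genes. On the side of mhc1uba 6 of 164 listed genes passed (3.66%), and on the side of cap2 18 of 256 (7.03%). All these counts include genes that were chosen by name for their change in this contrast. Such genes number 1 in each window (serinc2), 3 on the side of mhc1uba and 7 on the side of cap2. Shares without them are not given, so no difference between near and far, or between sides, is read from these values.

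Of the 10 genes, otud6b and myclb had the smallest ratios of log2 fold change to SE, 3.80 and 3.92 in absolute value. Among genes of the chromosome just outside the threshold were ndufv1, a subunit gene of respiratory complex I, at 3.28, and hsd17b8, a hydroxysteroid dehydrogenase gene, at 3.26. The means of hsd17b8 were 34.1 in thrb-/- retina and 66.4 in wild-type retina (log2 fold change -0.96 with SE 0.30 per the authors' deposited table). Its thrb-/- mean is below 50.04, so hsd17b8 is listed only through wild-type retina.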

How the data were processed

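The members and gene lists were chosen with earlier results of these data known. Per the submitters' processing notes, the build was danRer10 and the tools included DESeq2 1.18.1, HTSeq 0.9.1, STAR 2.7.2b and cutadapt 1.9.1, with settings and annotation not given in the sources used here. For each gene and genotype the authors deposited a signal, the mean of counts divided by a size factor, with the log2 fold change (thrb-/- over wild-type) and its SE. The deposited score, p-value and adjusted p-value test for a change beyond 2-fold, as checked on the values. The table holds no counts, so read depth per sample is unknown; genotype means sum to 10700117 in thrb-/- and 10849262 in wild-type retina, and the median SE is 0.14.

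A Wald test against no change was computed (Python 3.11.15, scipy 1.17.1, normal reference, Benjamini-Hochberg over 9211 genes). Gene names were placed by RefSeq symbol (8234) or synonym (896); 81, including the 10 rows whose names had become dates, were not placed. The rule for named genes took the 10 genes, thrb, the nearest listed genes on each side (1 is not reported here), other changed genes of the chromosome and, in each family, the changed or the 2 most abundant. Samples carry the labels' genotype. Nothing says whether replicates are independent beyond the pooled fish, so p-values rest on the deposited SE for these samples and reach no further. Alternatives changed the reference distribution, the adjustment, the minimum count and the centring.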

Additional observations from a re-analysis of the deposited data

How the results depend on the processing

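No paired analysis was possible because only genotype means were deposited; for the same reason leaving out each replicate was not run. The calls rest on the normal reference and on testing against no change. With the t reference given next thrb itself did not pass, at an absolute ratio of log2 fold change to SE of 22.72. No gene with a smaller ratio could then pass, so the loss of calls follows from that reference and does not grade single genes. Whether 4 degrees of freedom apply to the deposited SE is unknown. With a t distribution (4 degrees of freedom) as reference the count over all listed genes was 1 in place of 192, with 1 in place of 165 on the other chromosomes and 0 of the 10 genes, of the 14 further genes of chromosome 19, and of the genes within 50 annotated genes of thrb and farther away. By the authors' deposited test beyond 2-fold the counts were 7 over all listed genes, 4 on the other chromosomes, 2 of the 10 genes, 0 of the 14 further genes, and 1 within and 1 beyond 50 annotated genes of thrb; this test asks for larger changes by its construction. Adjustment over 13700 genes (unlisted ones counted as not changed), a minimum mean count of 100 and centring on the median of all genes kept these counts within 1.5 times. Placement by current symbol, run for the further genes of chromosome 19, gave 13 in place of 14, and a window of 100 genes gave 3 in place of 2 near thrb and 21 in place of 22 farther away. The log2 fold changes of the 10 genes and thrb moved by less than 1 SE under each of 4 other computations. Of these, 2 took the log2 ratio of the same deposited means, without and with a pseudocount of 1. The others subtracted the median over all listed genes (0.0006) or over other genes of the chromosome (-0.012). Such steps could hardly move a value by 1 SE, so they are a check of the arithmetic alone. The settings for the 10 genes' count and the other chromosomes' count were added after the data were seen. Read depth per sample is unknown; gmnn had the lowest mean count and the largest SE of the 10.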

Other observations

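A stretch of chromosome 19 from myclb to rrm2b, chosen after its values were seen and so without a test, held 8 of the 24 changed genes of the chromosome apart from thrb. It spans 60 annotated genes, of which 36 were listed, and 22.2% of those passed the Wald test, with 4 higher and 4 lower in thrb-/- retina. The share was 2.08% over all listed genes and 5.71% on chromosome 19 without thrb. Both ends were set at changed genes, and 3 of the 8 (myclb, gmnn and fam65b) were chosen by name for their change. These choices raise the share of the stretch, so nothing is read from it. The higher ones were gmnn, fam65b, tpd52 and znf704, and the lower ones myclb, nhsl3, necab1 and rrm2b. The median log2 fold change of the 36 was -0.02.

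At an unadjusted p under 0.05 in the Wald test, 16.9% of the listed genes of chromosome 19 differed, thrb left out, and on the other chromosomes the share ran from 4.17% on chromosome 23 to 12.0% on chromosome 18.

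Placement of c1galt1a on chromosome 19 rests on its present RefSeq symbol. The same name is also an older synonym of c1galt1la, a gene of chromosome 23, and the table does not say which was counted. Of the other listed genes of chromosome 19, 6 have such a name, and none of those 6 passed the Wald test.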
